A study of Mus musculus with 22 samples.

Results

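The embryonic globins of the mouse are described here through Hbb-bh1, Hbb-y and Hba-x, 3 of the 18193 genes measured with a probe set of their own. They were chosen by their measured values, as genes that stood high with YAP/TAZ siRNA and low in both kinds of control, so their differences between the arms of the study are a description and carry no test. Each gene was read from its single-symbol probe sets, and where it had several, from the one that was brightest on average across the arrays. Hbb-bh1 and Hbb-y have 3 such probe sets each and Hba-x has 1, which makes 7.

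All cultures were of Rex1GFPd2, a mouse embryonic stem (ES) cell line with a short-lived fluorescent reporter of the gene Rex1 (Zfp42). Either of 2 control siRNAs, or either of 2 mixes of siRNAs that target the Hippo pathway coactivators YAP (gene Yap1) and TAZ (Wwtr1), was transfected, and cells were harvested 72 hours later. Cells stayed in 2i medium, which holds the MEK inhibitor PD0325901 and the GSK3 inhibitor CHIR99021, or were moved 24 hours after transfection to medium with PD0325901 alone. This gave 7 arrays of control siRNA cells in 2i, 7 of control siRNA cells in PD-only medium and 8 of cells given YAP/TAZ siRNA in that same medium, 22 in all. Every arm therefore received PD0325901 and a transfected siRNA. In each medium control siRNA 1 was used for 4 arrays and control siRNA 2 for 3, and in PD-only medium each YAP/TAZ mix was used for 4. The labels hold no YAP/TAZ siRNA cells in 2i. They call the arrays of a group biological replicates without naming separate days, so the p-values measure only the spread between these arrays. The PD-only arms changed medium and no change is given for 2i.

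Haemoglobin joins alpha-type and beta-type globin chains, each holding a haem group. The first red cells, made in the yolk sac from mesoderm, use embryonic chains, and red cells of the foetal liver and bone marrow use adult ones. Hba-x encodes zeta globin, the embryonic alpha-type chain; Hbb-y encodes epsilon-y globin and Hbb-bh1 encodes beta-h1 globin, both embryonic beta-type chains. The alpha and beta genes lie in separate clusters on different chromosomes, each with distant enhancers, and are switched on in red cell precursors by GATA1, KLF1 and their partners.

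The bases upstream of the gene start are shown for Hbb-y and Hba-x, since genes of both clusters stood high in the same arrays. They come from the RefSeq promoter table of build GRCm38.p6, which holds these 2 members, and run 5′ to 3′ on the strand of the gene over the 250 bases before its start. Hbb-y lies on the minus strand at chr7:103853208-103853457 and Hba-x on the plus strand at chr11:32276350-32276599. Capitals mark, on either strand, words bound by GATA-type factors (AGATAA, or TGATAA, and the forms of either that end in G), the CACCC box bound by Krueppel-like factors, the CCAAT box, and a TATA-like word, either TATAAA or its variant CATAAA.
Hbb-y: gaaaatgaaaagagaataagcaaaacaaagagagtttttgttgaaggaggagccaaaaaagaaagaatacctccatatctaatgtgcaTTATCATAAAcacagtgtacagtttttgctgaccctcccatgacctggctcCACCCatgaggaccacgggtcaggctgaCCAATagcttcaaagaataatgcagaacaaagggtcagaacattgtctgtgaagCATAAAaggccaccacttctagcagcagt
Hba-x: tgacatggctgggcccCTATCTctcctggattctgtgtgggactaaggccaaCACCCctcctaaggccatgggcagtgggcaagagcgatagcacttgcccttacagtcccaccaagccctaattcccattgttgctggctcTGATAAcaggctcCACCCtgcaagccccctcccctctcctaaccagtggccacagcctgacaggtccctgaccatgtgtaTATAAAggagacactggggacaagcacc

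The Hbb-y window holds 1 GATA word, 1 CACCC box, 1 CCAAT box and 2 TATA-like words, and its GATA word, on the opposite strand, overlaps the farther TATA-like word. The Hba-x window holds 2 GATA words, 2 CACCC boxes, 1 TATA-like word and no CCAAT box. The nearer TATA-like word begins 29 bases before the start of Hbb-y and 28 bases before that of Hba-x. Of 32851 promoter windows of this length, 26.5% hold a GATA word, 52.0% a CACCC box, 33.8% a CCAAT box and 20.9% a TATA-like word, so none of these is rare. Of the core words of TCF/LEF factors only the form CTTTGA was searched, and other forms such as CTTTGT were not. CTTTGA occurs once in the Hbb-y window, on the opposite strand, and not in the Hba-x window, against 13.8% of all windows. The core word of TEAD factors, GGAATG, through which YAP and TAZ act, occurs in neither and in 12.6% of all windows. A word in a window is a description of its letters and not a measured site.

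All 3 embryonic globin genes read higher in each of the YAP/TAZ siRNA arrays than in all control arrays, and all 7 of their probe sets showed this. Over all genes, 21.1% had their lowest YAP/TAZ siRNA array above the highest PD-only control array, and 8.87% had it above the highest of all 14 control arrays. As the genes were chosen on these contrasts, nothing is read from that share. Values are log2 expression as made by RMA, and differences between arms weight each siRNA equally. The arrays read the RNA of whole cultures, so fewer cells with globin RNA and less globin RNA per cell cannot be told apart. RMA gives no call of presence, so it is not known whether the control values lie above the background of the probes.

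Hbb-bh1, the beta-h1 chain, had the largest step on the probe sets used. In 2i, control siRNA 1 gave 5.01, 4.78, 5.0 and 4.62 and control siRNA 2 gave 4.84, 4.80 and 4.73. In PD-only medium, control siRNA 1 gave 4.78, 4.38, 4.74 and 4.64 and control siRNA 2 gave 5.0, 4.55 and 4.48. YAP/TAZ mix 1 gave 8.32, 8.49, 8.40 and 8.38 and mix 2 gave 8.41, 8.52, 8.24 and 8.24. The 8 arrays with YAP/TAZ siRNA thus formed a tight set far above the 14 control arrays, while the controls of the 2 media overlapped. The mean of the 2i arm was 4.83 ± 0.14 (SD, n = 7), that of the PD-only control 4.65 ± 0.21 (n = 7) and that of the YAP/TAZ siRNA arm 8.38 ± 0.10 (n = 8). The YAP/TAZ siRNA arm lay above PD-only control by 3.72 ± 0.08 (SE) on the log2 scale, or 13.2-fold, and above 2i control by 3.55 ± 0.08, or 11.7-fold. The 2i control lay above PD-only control by 0.17 ± 0.08.

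Hbb-y, the epsilon-y chain, had a smaller step on the probe set used. In 2i, control siRNA 1 gave 3.85, 3.77, 3.87 and 4.23 and control siRNA 2 gave 4.11, 4.26 and 4.18. In PD-only medium, control siRNA 1 gave 3.98, 4.03, 3.98 and 3.70 and control siRNA 2 gave 3.85, 3.89 and 3.84. YAP/TAZ mix 1 gave 5.98, 5.94, 5.99 and 5.82 and mix 2 gave 6.01, 6.05, 5.93 and 5.92. The lowest YAP/TAZ siRNA array was again well above the highest control, and the control arms overlapped. The YAP/TAZ siRNA arm (5.96 ± 0.07, n = 8) lay above PD-only control (3.90 ± 0.11, n = 7) by 2.06 ± 0.06 (SE), or 4.18-fold, and above 2i control (4.04 ± 0.20, n = 7) by 1.90 ± 0.06, or 3.73-fold. Between the media the difference was 0.17 ± 0.06, with 2i higher.

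Hba-x, the zeta chain of the other cluster, lay apart in the same arrays. In 2i, control siRNA 1 gave 4.89, 4.89, 4.96 and 4.59 and control siRNA 2 gave 4.79, 4.55 and 4.78. In PD-only medium, control siRNA 1 gave 4.80, 4.68, 4.94 and 4.82 and control siRNA 2 gave 4.93, 4.72 and 4.88. YAP/TAZ mix 1 gave 6.58, 6.88, 6.91 and 6.65 and mix 2 gave 6.67, 6.94, 6.44 and 6.49. The YAP/TAZ siRNA arrays were more spread than for the beta-type genes and still did not reach down to any control array. Their mean of 6.70 ± 0.19 (SD, n = 8) lay above PD-only control (4.82 ± 0.10, n = 7) by 1.87 ± 0.08 (SE), or 3.65-fold, and above 2i control (4.78 ± 0.16, n = 7) by 1.93 ± 0.08, or 3.80-fold. The difference of 2i control from PD-only control was -0.06 ± 0.08.

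**Figure D1:**
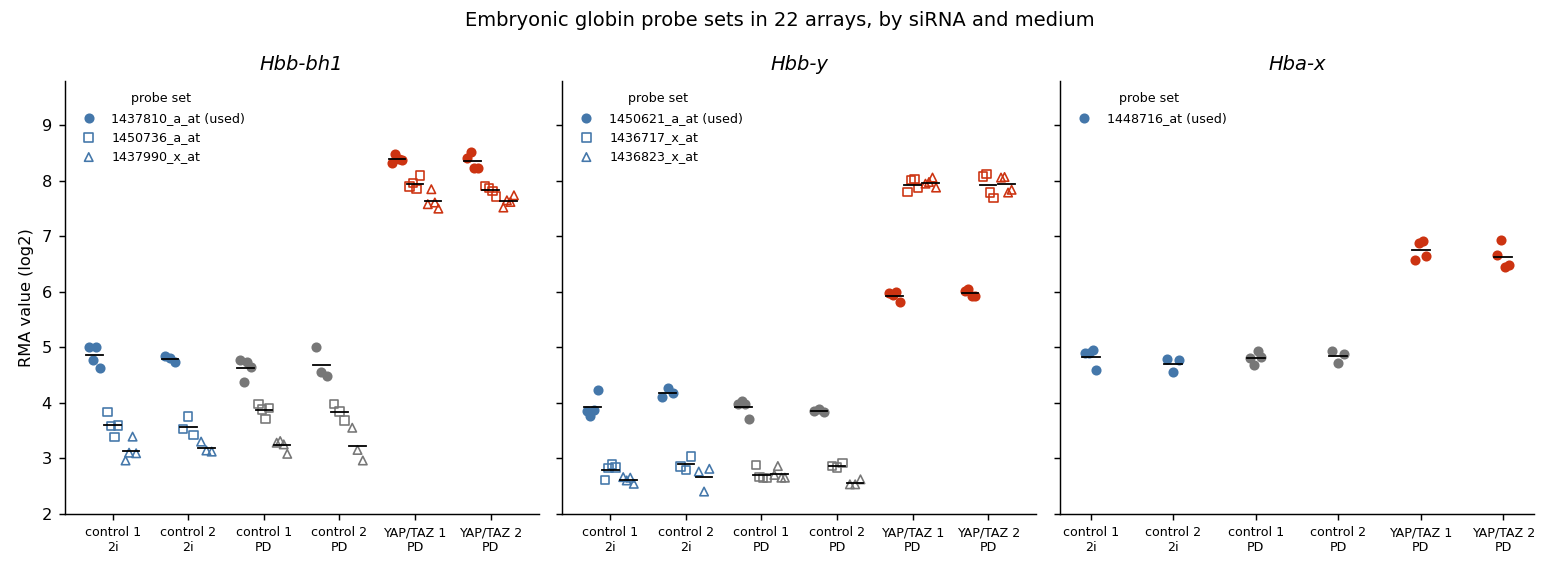
RMA values (log2, vertical axis) of the 7 embryonic globin probe sets in 22 arrays, by siRNA and medium (horizontal axis). Each point is 1 array, black lines are group means, filled circles are the probe set used for the gene, and open squares and triangles are its other probe sets. In each panel the red points of both YAP/TAZ mixes lie above all blue (2i control) and grey (PD-only control) points of the same probe set.

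The size of the step depended on the probe set, most of all for Hbb-y. Its other probe sets gave differences between YAP/TAZ siRNA and PD-only control of 5.14 ± 0.07 (SE), or 35.2-fold, and 5.32 ± 0.06, or 39.8-fold, against 4.18-fold for the one used. The other probe sets of Hbb-bh1 gave 4.04 ± 0.07, or 16.4-fold, and 4.41 ± 0.08, or 21.2-fold. All of these therefore showed a larger step than the probe set that the rule took, so 4.18-fold for Hbb-y is the lowest of its 3 estimates. The sign of the difference between media also varied by probe set for Hbb-bh1, with -0.27 ± 0.07 and -0.06 ± 0.08 on the others against 0.17 ± 0.08. The 2 probe sets of Hbb-y with the largest steps and the Hbb-bh1 probe set with the largest step carry the suffix that marks probes able to bind other transcripts, and the split of their signal between related globins was not tested.

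The mixes and the control siRNAs each gave the same picture when taken alone. Setting each of the 2 YAP/TAZ mixes against each of the 2 PD-only control siRNAs, the 4 differences ran from 3.68 to 3.76 for Hbb-bh1, from 2.01 to 2.12 for Hbb-y and from 1.79 to 1.95 for Hba-x. Against the 2i control siRNAs they ran from 3.50 to 3.61, from 1.75 to 2.05 and from 1.80 to 2.05. The spread over siRNAs was thus small beside the step itself. The pairs share arrays and are not independent.

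The siRNAs of 1 kind were compared by a test, since the genes were not chosen on that. YAP/TAZ mix 2 differed from mix 1 by -0.05 ± 0.11 (SE) for Hbb-bh1, 0.05 ± 0.08 for Hbb-y and -0.12 ± 0.11 for Hba-x, with 95% intervals of -0.27 to 0.18, -0.13 to 0.22 and -0.34 to 0.10. None passed limma's test across all genes, which called 0% of them for the mixes, 0% for the control siRNAs in PD-only medium and 0% for those in 2i. At an unadjusted p under 0.05, the counts were 648, 769 and 1450 of 18193 genes, and limma with a variance trend and robust fit called 0, 1 and 2. In PD-only medium control siRNA 2 differed from control siRNA 1 by 0.04 ± 0.12, -0.06 ± 0.09 and 0.03 ± 0.12 for Hbb-bh1, Hbb-y and Hba-x. In 2i the differences were -0.06 ± 0.12, 0.25 ± 0.09 and -0.13 ± 0.12. The Hbb-y value in 2i was the largest of these 9 and did not pass (limma adjusted p = 0.499, unadjusted p = 0.00972), although all 3 arrays of control siRNA 2 but only 1 of the 4 of control siRNA 1 were above 4.

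Within an arm, arrays were compared to see whether the 3 genes went up and down together, which gave 9 relations. With YAP/TAZ siRNA, arrays with more Hbb-bh1 also had more Hba-x (Pearson r = 0.918, exact permutation p = 0.00248, adjusted p = 0.0223; Spearman rho = 0.922, exact permutation p = 0.00268, adjusted p = 0.0241; n = 8). Without the 2 arrays farthest from the Hbb-bh1 median r was 0.817, and with the mean of all probe sets per gene it was 0.747 with an adjusted permutation p of 0.126. In 2i control the relation of Hbb-y and Hba-x was negative (r = -0.882, exact permutation p = 0.00794, adjusted p = 0.0357; rho = -0.883, exact permutation p = 0.0151, adjusted p = 0.0679; n = 7). It was -0.923 without the 2 arrays farthest from the Hbb-y median, and on the mean of probe sets it was -0.335 with an adjusted permutation p of 0.576. The other 7 relations, with r from -0.639 to 0.698, did not pass. The permutations ran over the arrays of both siRNAs of an arm together. In 2i, control siRNA 2 differed from control siRNA 1 by 0.25 for Hbb-y and -0.13 for Hba-x, and this difference enters the negative relation. Within each siRNA the array highest in Hbb-y was also lowest in Hba-x. These were array D of control siRNA 1 (4.23 and 4.59) and array B of control siRNA 2 (4.26 and 4.55). The part of the siRNA difference in the relation was not tested. Each group has at most 4 arrays, too few for a relation within 1 siRNA.

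The adult globins were read next. Of 13 further globin genes listed, 6 had a probe set of their own. Against PD-only control, 35.5% of all genes were called higher with YAP/TAZ siRNA and 26.3% lower at a limma adjusted p under 0.05. Of the 6, 2 were called higher and none lower, with a list median of 0.11 beside 0.06 over all genes. The adult alpha genes Hba-a1 (0.07 ± 0.09, limma adjusted p = 0.495) and Hba-a2 (0.15 ± 0.11, adjusted p = 0.242) did not pass, nor did adult Hbb-b2 (-0.03 ± 0.05, adjusted p = 0.58). Myoglobin, the oxygen store of muscle, also did not pass (Mb, 0.03 ± 0.04, adjusted p = 0.58). The 2 called were neuroglobin (Ngb, 0.17 ± 0.04, adjusted p = 0.00166) and cytoglobin (Cygb, 0.22 ± 0.08, adjusted p = 0.0177), and neither was called when the Actb 3′ minus 5′ value entered as covariate (adjusted p = 0.571 and 0.369). That value, a measure of RNA quality, did not overlap between PD-only control (0.66 to 0.75) and YAP/TAZ siRNA arrays (0.88 to 1.07). In comparisons with PD-only control, RNA quality and arm therefore cannot be told apart by this covariate, here or below. Second single-symbol probe sets gave another picture for 3 of these genes, with 0.21 ± 0.07 for Hbb-b2 and -0.16 ± 0.06 for Mb, both past the test over all probe sets (adjusted p = 0.022 and 0.027), and -0.10 ± 0.08 for Ngb, which did not pass (adjusted p = 0.315). Against 2i control, where 25.5% of all genes were called higher and 22.8% lower, none of the 6 was called.

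Probe sets that the annotation gives to both adult alpha genes behaved unlike the single-symbol ones. One of the 3 ran from 6.17 to 6.52 with a median of 6.25 in the YAP/TAZ siRNA arrays. It ran from 4.01 to 4.38 with a median of 4.12 in PD-only control and from 3.83 to 4.13 with a median of 3.95 in 2i control. The YAP/TAZ siRNA arrays did not overlap either control. The difference was 2.12 ± 0.05 (SE) from PD-only control (limma adjusted p = 5e-18) and 2.30 ± 0.05 from 2i control (adjusted p = 1.67e-17), in a fit over all probe sets. Another was higher by 1.09 ± 0.06 and 1.06 ± 0.06 (adjusted p = 3.42e-12 and 1.54e-11), and the third by 0.40 ± 0.09 and 0.31 ± 0.09 (adjusted p = 0.00124 and 0.012). A probe set shared by the adult beta genes was higher by 0.32 ± 0.05 and 0.16 ± 0.05 (adjusted p = 4.22e-05 and 0.025). Which adult gene the shared probes read, and whether they also bind the embryonic transcripts, was not tested.

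**Figure D2:**
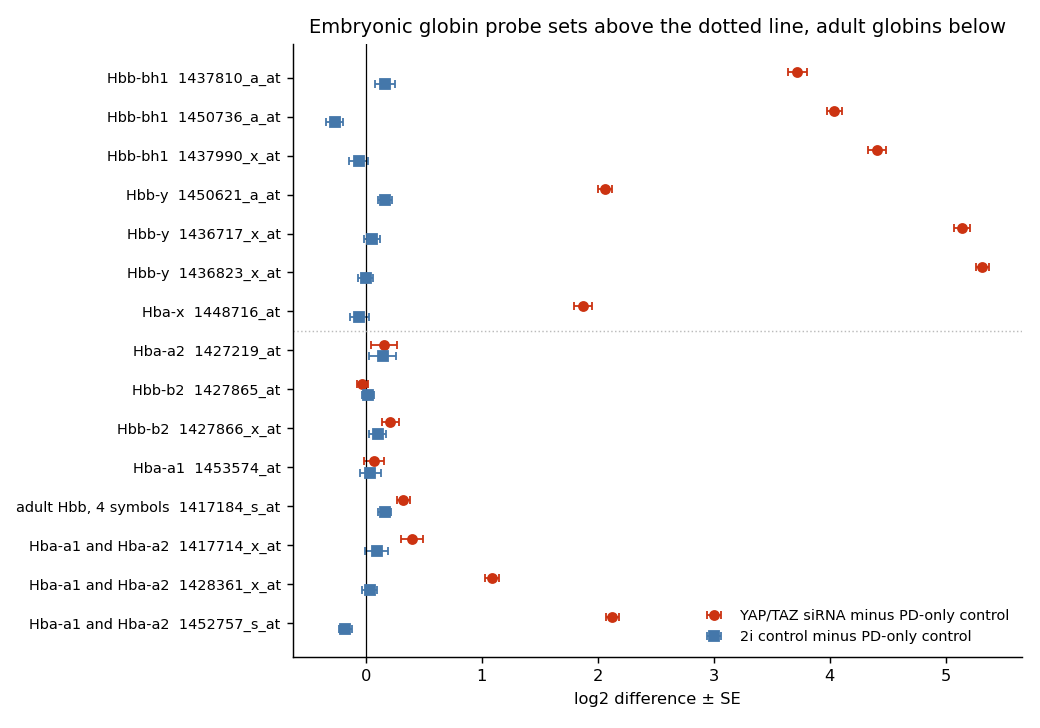
Log2 differences ± SE (horizontal axis) of 15 globin probe sets (vertical axis, annotated gene and probe set): red circles are YAP/TAZ siRNA minus PD-only control and blue squares 2i control minus PD-only control, both against the same arrays. The embryonic probe sets above the dotted line lie between 1.87 and 5.32 for YAP/TAZ siRNA, the adult ones between -0.03 and 2.12, with the shared alpha probe sets highest among them.

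Among all genes, the pattern of the embryonic globins was shared by few. Genes called and at least 1 log2 unit higher with YAP/TAZ siRNA than in both controls numbered 39, and 19 of them differed by less than 0.25 between the control media. The 3 embryonic globins are in both counts by the way they were chosen. The band 3 gene Slc4a1, the main anion exchanger of the red cell membrane, is also among the 19 through the probe set used alone, which carries the same suffix as the globin probe sets above. It was picked out after its values were seen. Against PD-only control and against 2i control the same YAP/TAZ siRNA arrays are used, so these counts do not rest on independent comparisons.

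**Figure D3:**
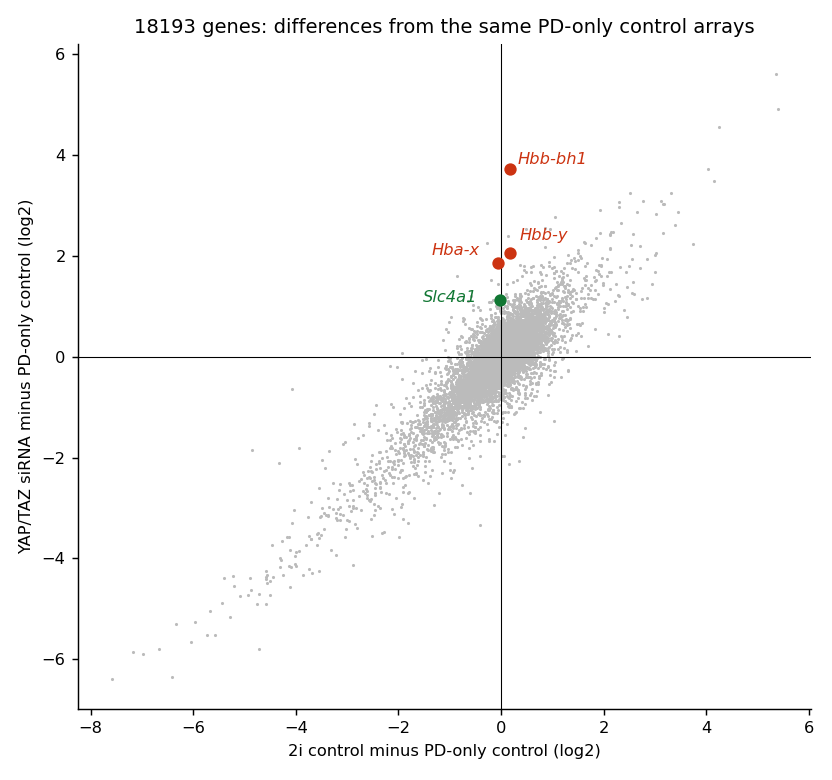
Log2 difference of YAP/TAZ siRNA from PD-only control (vertical axis) against that of 2i control from PD-only control (horizontal axis) for 18193 genes (grey points). Both axes use the same PD-only arrays; the embryonic globins (red) lie at 1.87 to 3.72 on the vertical axis and between -0.06 and 0.17 on the horizontal, with Slc4a1 (green) below them at 1.13 and -0.02.

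The red cell list holds membrane, enzyme and receptor genes of maturing red cells, and 13 of its 16 genes were measured. With YAP/TAZ siRNA 4 of the 13 were called higher than in PD-only control, none lower, and 9 were not called (list median 0.08, all genes 0.06). The shares over all genes, here and for the lists below, are 35.5% higher and 26.3% lower against PD-only control. They are 25.5% and 22.8% against 2i control, and 31.3% and 26.7% for 2i control against PD-only control. Slc4a1 ran from 4.95 to 5.78 with a median of 5.46 in the YAP/TAZ siRNA arrays, from 4.08 to 4.55 with a median of 4.35 in PD-only control and from 4.04 to 4.42 with a median of 4.30 in 2i control. No YAP/TAZ siRNA array overlapped a control. Slc4a1 was higher by 1.13 ± 0.09 (SE) than in PD-only control (limma adjusted p = 7.01e-10) and by 1.15 ± 0.09 than in 2i control (adjusted p = 1.04e-09), on a probe set able to bind other transcripts. Its other probe sets gave 0.66 ± 0.08 and 0.17 ± 0.07 against PD-only control (adjusted p = 2.85e-07 and 0.0413 over all probe sets) and 0.38 ± 0.08 and 0.17 ± 0.07 against 2i control (adjusted p = 0.000408 and 0.0511). The first of these also differed between the media, by 0.28 ± 0.08 (adjusted p = 0.00605). The blood group genes Kel and Rhd rose by 0.22 ± 0.04 and 0.17 ± 0.03 (adjusted p = 1.83e-05 and 0.000184), and Tspo2, which encodes a membrane protein of red cell precursors, by 0.23 ± 0.07 (adjusted p = 0.0113). Kel and Tspo2 were not called with the Actb covariate (adjusted p = 0.0941 and 0.738), nor was Tspo2 without array B of PD-only control siRNA 2.

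Other than Slc4a1, the measured genes of this list gave no such step. The list averaged 4.41 in PD-only control and 4.57 with YAP/TAZ siRNA, below the median over genes of 6.64. Whether its genes lie above the background of the probes is not known. Those named next are among the 9 not called against PD-only control. The erythropoietin receptor Epor (-0.05 ± 0.10, limma adjusted p = 0.653), the spectrin gene Sptb (0.05 ± 0.09, adjusted p = 0.66), the protein 4.2 gene Epb42 (0.00 ± 0.06) and hemogen, Hemgn (-0.03 ± 0.09), did not pass against PD-only control. Against 2i control Slc4a1 alone was called in this list and 12 of 13 were not, but Kel was called too, making 2, without array B of 2i control siRNA 2 or array B of mix 2. In 2i control against PD-only control, where 31.3% of all genes were called higher and 26.7% lower, 4 of the 13 were called higher, among them Tspo2 (0.36 ± 0.08, adjusted p = 0.000426) and the ankyrin gene Ank1 (0.18 ± 0.07, adjusted p = 0.0321), and 1 lower. That lower call, Rhag (-0.16 ± 0.06, adjusted p = 0.0387), was lost when any of 7 arrays was left out.

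Transcription factors of the red cell lineage moved in both directions. All 12 listed erythroid regulators were measured. Against PD-only control 6 were called higher and 5 lower with YAP/TAZ siRNA, beside 35.5% and 26.3% of all genes (list median 0.18, all genes 0.06). Gata1, the factor that directs red cell maturation, fell by 0.76 ± 0.07 (SE) on the log2 scale (limma adjusted p = 2.19e-09), and its cofactor FOG1 (Zfpm1) fell by 0.62 ± 0.07 (adjusted p = 1.5e-07). The arrays of the PD-only control were higher for Gata1 than all arrays with YAP/TAZ siRNA. Tal1 and Gata2, which act in blood progenitors, fell by 0.31 ± 0.07 and 0.34 ± 0.07 (adjusted p = 0.000524 and 0.000561). Nfe2, a factor of platelet and red cell precursors, rose by 0.69 ± 0.05 (adjusted p = 6.64e-11) and Klf2, which with Klf1 is known to activate embryonic globin genes, by 0.61 ± 0.02 (adjusted p = 6.32e-15). Klf1 itself, the erythroid Krueppel-like factor, rose by 0.30 ± 0.07 (adjusted p = 0.000516). Several of these genes read low. From PD-only control to YAP/TAZ siRNA the means went from 5.45 to 4.71 for Gata1, 4.11 to 3.82 for Tal1 and 4.47 to 4.76 for Klf1. All are below the median over genes of 6.64, and whether they lie above the background of the probes is not known. Gata2 (7.44 and 7.09) and Klf2 (11.80 and 12.42) lay above that median.

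Most of these regulators also differed between the control media. In 2i control against PD-only control, 5 of the 12 were called higher and 5 lower, with Zfpm1 at -1.05 ± 0.07 (limma adjusted p = 8.07e-11), Gata1 at -0.94 ± 0.07 (adjusted p = 1.52e-10) and Klf2 at 0.90 ± 0.03 (adjusted p = 2.11e-17). The YAP/TAZ siRNA and 2i comparisons share the PD-only arrays. Against 2i control 6 of the 12 were called higher and 3 lower with YAP/TAZ siRNA. The LIM protein Lmo2, a bridge in the GATA1 complex, was higher by 0.55 ± 0.07 (adjusted p = 6.67e-07), Zfpm1 by 0.44 ± 0.07 (adjusted p = 2.41e-05) and Klf1 by 0.24 ± 0.07 (adjusted p = 0.00564). Klf3, a repressor of the Krueppel-like family, was lower by 0.54 ± 0.03 (adjusted p = 3.75e-11). Of its other probe sets, some passed with smaller differences, from -0.51 to -0.22. Others did not, at -0.07 ± 0.04 and -0.05 ± 0.07 (adjusted p = 0.164 and 0.687 over all probe sets). Klf2, higher than in PD-only control, was lower than in 2i control, at -0.29 ± 0.02 (adjusted p = 2.57e-09). Gata1 was higher by 0.18 ± 0.07 (adjusted p = 0.0272) and lost that call in 6 of the 22 fits that left out an array. A second Zfpm1 probe set passed in none of the comparisons, with 0.0025 ± 0.06 against PD-only control, 0.07 ± 0.06 against 2i control and -0.06 ± 0.06 between the media (adjusted p = 0.975, 0.416 and 0.4 over all probe sets), so the Zfpm1 calls rest on 1 probe set. The Gata2 and Lyl1 calls against PD-only control were lost with the Actb covariate (adjusted p = 0.161 and 0.164).

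Proteins known to silence embryonic globins in later red cells also moved in both directions. All 14 were measured, and against PD-only control 6 were called higher and 5 lower, beside 35.5% and 26.3% of all genes (list median 0.11, all genes 0.06). The methyl-DNA binding protein Mbd2 fell by 1.27 ± 0.04 (SE) on the log2 scale (limma adjusted p = 2.3e-17), the nuclear receptor TR2 (Nr2c1) by 1.11 ± 0.06 (adjusted p = 4.61e-12) and Sox6 by 0.88 ± 0.07 (adjusted p = 4.71e-10). The same 3 were also lower than in 2i control, by -0.76 ± 0.04, -0.67 ± 0.06 and -0.79 ± 0.07 (adjusted p = 4.68e-13, 2.25e-08 and 4.93e-09). In that comparison 5 of the 14 were called higher and 4 lower. Bcl11a, a repressor of embryonic and foetal beta-type globins, did not pass against PD-only control (0.15 ± 0.07, adjusted p = 0.0767) or 2i control (0.09 ± 0.07, adjusted p = 0.335). The DNA methyltransferase Dnmt1 rose by 0.41 ± 0.02 (adjusted p = 8.13e-12) and Myb by 0.48 ± 0.05 (adjusted p = 8.28e-08) against PD-only control. In 2i control against PD-only control 5 were called higher and 5 lower, among them Myb (0.57 ± 0.05), Ehmt1 (-0.57 ± 0.03) and Mbd2 (-0.52 ± 0.04).

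Haem synthesis and iron uptake, which supply the group that globin carries, were measured by 14 of 15 listed genes. Against PD-only control 5 were called higher and 3 lower with YAP/TAZ siRNA, beside 35.5% and 26.3% of all genes (list median 0.06, all genes 0.06). The transferrin receptor Tfrc, through which cells take up iron, rose by 0.91 ± 0.02 (SE, limma adjusted p = 1.01e-17), and uroporphyrinogen decarboxylase Urod rose by 0.55 ± 0.02 (adjusted p = 1.64e-14). Haem oxygenase 1 (Hmox1), which breaks haem down, fell by 0.43 ± 0.07 (adjusted p = 1.34e-05). Alas2, the first enzyme of haem synthesis in red cells, did not pass (0.08 ± 0.07, adjusted p = 0.346). Against 2i control 6 were called higher and 3 lower, with Tfrc at 0.66 ± 0.02 (adjusted p = 9.32e-15), Uros, the enzyme before Urod, at -0.51 ± 0.03 (adjusted p = 1.01e-10) and mitoferrin Slc25a37 at -0.44 ± 0.05 (adjusted p = 2.55e-07). In 2i control against PD-only control 5 were called higher and 4 lower, with Uros at 0.53 ± 0.04, Urod at 0.49 ± 0.02 and Hmox1 at -0.34 ± 0.07 (adjusted p = 5.18e-11, 1.93e-13 and 0.000264).

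**Figure D4:**
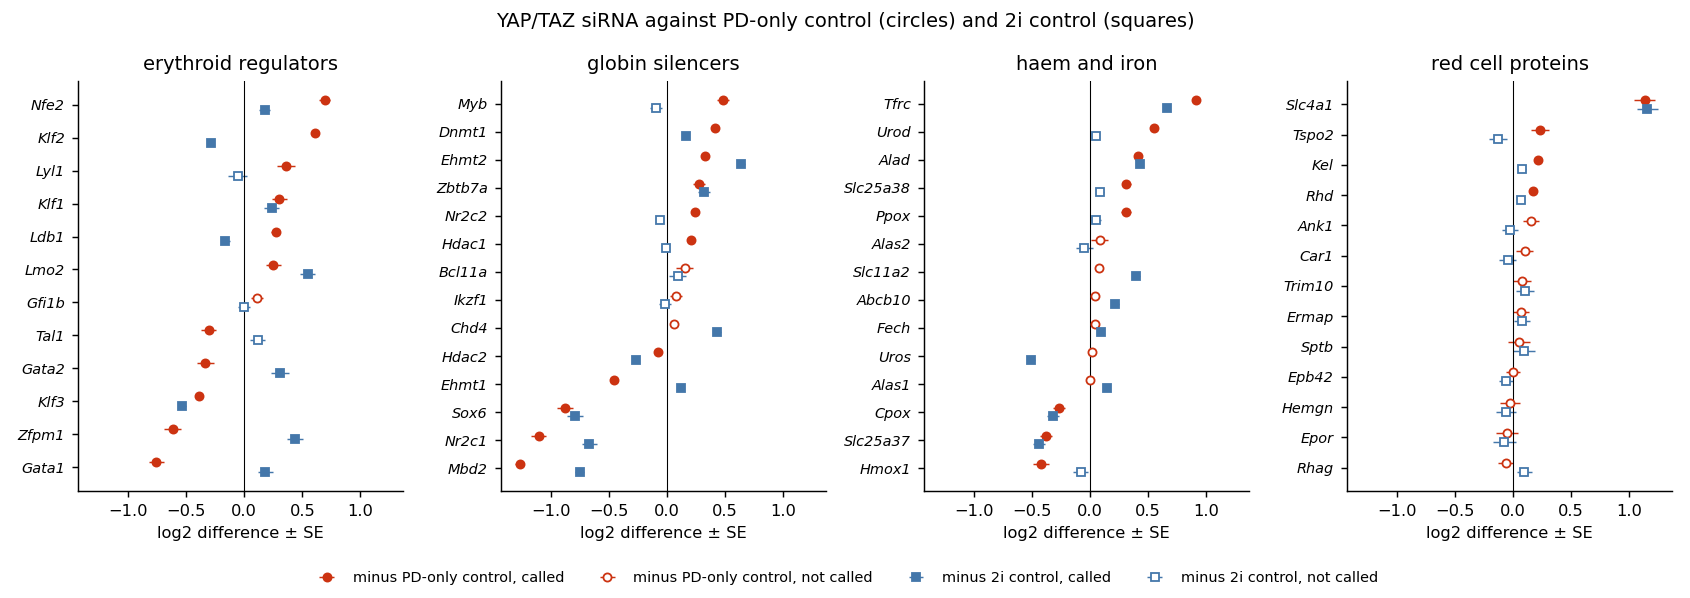
Log2 differences ± SE (horizontal axes) of genes in the lists of erythroid regulators, globin silencers, haem and iron genes and red cell proteins (vertical axes, 1 gene per row, ordered by the circles). Red circles are YAP/TAZ siRNA minus PD-only control, blue squares YAP/TAZ siRNA minus 2i control, and filled symbols passed limma's adjusted p of 0.05. Slc4a1 stands apart in its list, at 1.13 and 1.15, while the regulators run from -0.76 to 0.69 for the circles.

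Markers of other cell types were read in the same arrays. Of 19 genes of blood and vessel progenitors, 8 were called higher and 3 lower than in PD-only control, beside 35.5% and 26.3% of all genes (list median 0.12, all genes 0.06). The angiopoietin receptor Tek fell by 1.67 ± 0.05 (SE, limma adjusted p = 1.62e-17), the VEGF receptor Kdr by 0.745 ± 0.06 (adjusted p = 3e-10) and the progenitor surface protein Cd34 by 0.60 ± 0.07 (adjusted p = 6.29e-07). Those 3 are all the genes called lower. Of the 8 called higher, the stem cell factor receptor Kit rose by 1.49 ± 0.03 (adjusted p = 3.78e-20) and the adhesion molecule Esam by 0.91 ± 0.05 (adjusted p = 2.31e-12). Hhex and Pecam1, described below, were also among the 8. Against 2i control 7 of the 19 were called higher and 5 lower, with Esam at 0.92 ± 0.05, Hhex, a homeobox gene of blood and endoderm, at 0.61 ± 0.04 and Tek at -1.08 ± 0.05 (adjusted p = 5.47e-12, 3.62e-11 and 9.03e-14). The vessel gene Cdh5 (0.12 ± 0.07), the blood factors Runx1 (-0.01 ± 0.05) and Fli1 (0.12 ± 0.07) and the haemangioblast factor Etv2 (0.05 ± 0.04) did not pass against PD-only control, while Etv2 was higher than in 2i control by 0.48 ± 0.04 (adjusted p = 8.35e-10). In 2i control against PD-only control 4 were called higher and 4 lower, with Kit at 1.20 ± 0.03, the adhesion molecule Pecam1 at 0.79 ± 0.03 and Kdr at -0.60 ± 0.06 (adjusted p = 2.42e-18, 2.84e-14 and 1.94e-08). The mean over these 19 genes ran from 5.74 to 5.81 in the YAP/TAZ siRNA arrays, from 5.65 to 5.69 in PD-only control and from 5.67 to 5.75 in 2i control. Their part in the globin values was not tested.

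White cell markers differed little from PD-only control. Of 7 measured genes, 2 were called higher and none lower than in PD-only control, beside 35.5% and 26.3% of all genes. Those higher were Spi1 (0.25 ± 0.05, limma adjusted p = 0.000368) and Cd3e (0.13 ± 0.04, adjusted p = 0.0128). The second call was lost without array B of PD-only control siRNA 2, while without array D of mix 2 a gene was called lower. The pan-leukocyte gene Ptprc (-0.02 ± 0.06) and the macrophage gene Csf1r (-0.10 ± 0.09) did not pass. Against 2i control 1 of the 7 was called higher and none lower. That was Cd68, a lysosomal protein of macrophages, at 0.66 ± 0.05 (adjusted p = 1.35e-09), with all YAP/TAZ siRNA arrays above the 2i arrays. Cd68 was lower in 2i control than in PD-only control (-0.77 ± 0.06, adjusted p = 1.31e-10) and Spi1 was higher (0.20 ± 0.05, adjusted p = 0.0031). The mean over the list ran from 5.20 to 5.34 with YAP/TAZ siRNA, from 5.17 to 5.27 in PD-only control and from 5.08 to 5.21 in 2i control, and its part was not tested. The ES cell genes Pou5f1, Nanog, Sox2 and Zfp42 had arm means of 12.58 to 13.34 on the log2 scale in all 3 arms. With YAP/TAZ siRNA they differed from PD-only control by 0.43, 0.29, 0.07 and 0.06, in that order. From 2i control they differed by 0.01, -0.22, -0.30 and -0.28.

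Mesoderm genes, of the germ layer that forms blood, were compared in the same way. Against PD-only control 7 of 15 measured were called higher and 2 lower, beside 35.5% and 26.3% of all genes (list median 0.09, all genes 0.06). The caudal gene Cdx2 rose by 1.07 ± 0.07 (SE, limma adjusted p = 2.69e-11), Evx1 by 0.56 ± 0.11 (adjusted p = 0.000122) and Wnt3 by 0.42 ± 0.10 (adjusted p = 0.000913). The mesoderm regulators Mesp1 (0.14 ± 0.06, adjusted p = 0.0369) and Mixl1 (0.24 ± 0.08, adjusted p = 0.017) rose, and Eomes fell by 0.22 ± 0.06 (adjusted p = 0.00255). With the Actb covariate 4 genes were called higher and none lower, and without array A of PD-only control siRNA 2 the lower calls were 1. Against 2i control 5 of the 15 were called higher and 1 lower, and none lower without array A of 2i control siRNA 2. Eomes, lower than in PD-only control, was higher than in 2i control by 0.87 ± 0.06 (adjusted p = 1.18e-10), and so were Wnt3 by 0.62 ± 0.10 (adjusted p = 2.4e-05) and the homeobox gene Gsc by 0.55 ± 0.10 (adjusted p = 7.37e-05). Between the media, 2 were called higher in 2i control than in PD-only control, Cdx2 (0.55 ± 0.07, adjusted p = 1.27e-06) and Lhx1 (0.13 ± 0.05, adjusted p = 0.0385), and 1 lower, Eomes (-1.10 ± 0.06, adjusted p = 2.58e-12). The higher calls of that comparison were 1 without any of 8 arrays and 4 without array C of PD-only control siRNA 1, and the lower calls were 2 without array D of mix 2. The mean over the list ran from 5.04 to 5.15 with YAP/TAZ siRNA, above 4.82 to 4.99 in PD-only control and 4.82 to 4.96 in 2i control. Its part in the globin values was not tested.

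Genes of the BMP response, a signal that induces blood mesoderm in the embryo, mostly fell against PD-only control but not against 2i control. Of 10, 2 were called higher and 8 lower with YAP/TAZ siRNA than in PD-only control, beside 35.5% and 26.3% of all genes (list median -0.97, all genes 0.06). Among them were Id3 at -2.20 ± 0.05 (SE, limma adjusted p = 2.22e-19), Id2 at -2.10 ± 0.07 (adjusted p = 9.19e-16) and Msx2 at -2.05 ± 0.07 (adjusted p = 1.74e-16). The 2i control, set against PD-only control, likewise had 2 called higher and 8 lower (list median -1.24), with Id1 at -4.86 ± 0.06, Id2 at -4.32 ± 0.08 and Id3 at -3.43 ± 0.05 (adjusted p = 9.27e-23, 1.4e-20 and 3.47e-22). Against 2i control 5 were called higher and 3 lower with YAP/TAZ siRNA (list median 0.17), with Id1 higher by 3.0 ± 0.06, Id2 by 2.22 ± 0.07 and Id3 by 1.23 ± 0.05 (adjusted p = 1.58e-18, 1.85e-15 and 1.46e-14). These 3 Id genes thus stood apart in all 3 arms. The part of the BMP response in the globin values was not tested.

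The measured genes nearest to the globin clusters did not share the step. Around the alpha cluster on chromosome 11, the 5 measured genes on each side ranged from -1.76 for Rhbdf1 to 0.45 for Snrnp25 against PD-only control, with 2 called higher, 5 lower and 3 not called. Nprl3, whose introns hold the enhancers of the alpha genes, was at -0.20 ± 0.06 (SE, limma adjusted p = 0.00365) and was not called with the Actb covariate (adjusted p = 0.699). Around the beta cluster on chromosome 7 many genes lack a value here, so the 5 taken on each side are not adjacent. Counted in protein-coding genes from the cluster, they are at places 1, 2, 58, 62 and 64 on the side of lower coordinates and at 1, 2, 3, 17 and 19 on the other. These 10, most of them olfactory receptors, ranged from -1.01 for Trim68, the farthest on its side, to 0.27 for Ubqlnl, the farthest on the other, with 4 called higher, 1 lower and 5 not called. The 5 at places 1 to 3 were not called and ranged from -0.04 to 0.19. Their arm means lay between 3.13 and 4.13, below the median over genes of 6.64. Whether they lie above the background of the probes is not known. Of the 4 higher calls, Olfr558 and Ubqln5 were both lost without array D of mix 1 or array C of PD-only control siRNA 2, and Olfr78 and Ubqln5 with the Actb covariate (adjusted p = 0.27 and 0.28). The highest of these genes was thus below the 1.87 of the lowest embryonic globin. Against 2i control the genes of the alpha and beta surroundings ranged from -0.33 to 0.24 and from -0.32 to 0.15.

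**Figure D5:**
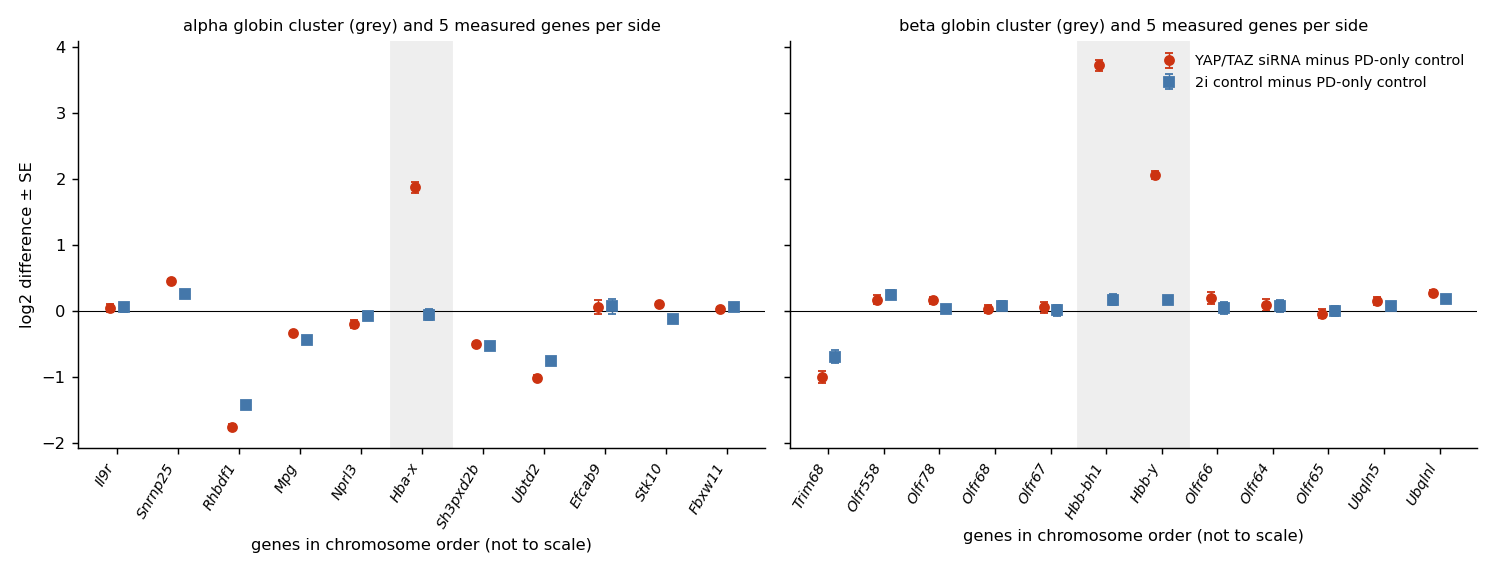
Log2 differences ± SE (vertical axis) of the embryonic globins (grey band) and the 5 measured genes on each side of their clusters in chromosome order (horizontal axis, not to scale, with unmeasured genes between them left out, order from RefSeq GRCm38.p6, adult globins left out). Red circles are YAP/TAZ siRNA minus PD-only control and blue squares 2i control minus PD-only control; the genes outside the band lie between -1.76 and 0.45 for the circles.

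Genes whose profile over the 22 arrays lay nearest to each globin were named by the root mean square difference after centring, among genes that reached 6.64, the median over genes, in the mean of some arm and had an SD of at least 0.5. For Hbb-y the nearest were Oas1a (0.248), Ngfr (0.25), Stmn3 (0.261), Myl2 (0.265) and Rimkla (0.297), where a smaller value is more alike. For Hba-x they were Oas1a (0.200), H2-Bl (0.257), Myl2 (0.268), Ngfr (0.272) and Acsbg3 (0.305). Among the embryonic globins Hbb-y and Hba-x lay 0.241 apart, so Hba-x was nearer to Hbb-y than any gene named for Hbb-y. Oas1a, at 0.200, was in turn nearer to Hba-x than Hbb-y was. These distances hold for the probe set used for Hbb-y, with a step of 2.06 against 5.14 and 5.32 on its others. The globins were also chosen for sharing this pattern over the arms. Hbb-bh1, with its larger step, lay 0.822 from Hbb-y and 0.851 from Hba-x, and its nearest were Rimkla (0.645), Ngfr (0.650), Stmn3 (0.667), Itpka (0.776) and Cox7a1 (0.792). Nothing follows from likeness in 22 arrays about a shared function.

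The whole series bears on these values in a few respects. Yap1 was at 41.4% and Wwtr1 at 48.8% of the PD-only control level with YAP/TAZ siRNA (-1.27 ± 0.03 and -1.04 ± 0.03, SE, limma adjusted p = 2.61e-18 and 5.32e-17). Array medians ran from 5.51 to 5.55, the correlation between arrays of an arm was at least 0.9977 and no arrays held identical values. The Actb 3′ minus 5′ value, which grows as RNA degrades, had a mean of 0.966 ± 0.104 over the 2i arrays (SD, n = 7), 0.717 ± 0.035 over the PD-only control arrays (n = 7) and 0.975 ± 0.062 over the YAP/TAZ siRNA arrays (n = 8). The mean of the poly-A spike-in control probe sets was 8.96 ± 0.15 over the 2i arrays, 8.52 ± 0.17 over the PD-only control arrays and 8.43 ± 0.12 over the YAP/TAZ siRNA arrays. The part of either measure in the globin values was not tested beyond the Actb covariate, with which the YAP/TAZ siRNA arm lay above PD-only control by 3.70 for Hbb-bh1, 2.01 for Hbb-y and 1.69 for Hba-x. The Actb values of PD-only control (0.66 to 0.75) did not overlap those of YAP/TAZ siRNA (0.88 to 1.07) or 2i control (0.87 to 1.19). In comparisons with PD-only control this covariate therefore cannot tell RNA quality from the arm. The Actb values of YAP/TAZ siRNA and 2i control overlapped. With the covariate, YAP/TAZ siRNA lay above 2i control by 3.55 for Hbb-bh1, 1.90 for Hbb-y and 1.92 for Hba-x.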

How the data were processed

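The deposited log2 values were made by the authors with RMA, per the submitters' processing notes, from 22 single-colour Affymetrix mouse arrays; the version is not given in the sources used here, and the log2 scale is taken from the tool and from values between 2.09 and 14.91. As usually run, RMA makes the distributions of arrays alike and compresses differences of dim probe sets. The number of arrays limits the precision. Of 45101 probe sets, 34945 carry 1 gene symbol and 932 several; the brightest single-symbol probe set of each gene over all arrays was used.

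The model had 1 mean per siRNA and medium and was run with limma 3.58.1 under R 4.3.3 (eBayes with 16 degrees of freedom, and 3.1 from the prior), with p adjusted by Benjamini-Hochberg over 18193 genes and called under 0.05; errors of differences are SEs and of arm means SDs. The fit was tested on simulated data. Shared probe sets came from a fit over all probe sets.

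The members and lists were chosen with earlier results of these data known. Named were all members and further globins, up to 3 called genes per list and comparison with the largest difference, the 5 most alike genes and the 5 nearest measured genes per side of a cluster; other genes were picked for their role after their values were seen. Replicate letters were not used to pair the arrays: of 51 pairs with the same letter, 2 had correlated deviations over 0.1 (-0.077 to 0.124). Alternatives covered probe sets, dim genes, normalization, variance model, array weights, the arrays and siRNAs used, the replicate block, RNA quality and the threshold. Figures used matplotlib 3.10.9.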

Additional observations from a re-analysis of the deposited data

Results flagged for a closer look

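The values of the 3 embryonic globins were searched for arrays that stood apart, in 21 sets of 1 gene in either an arm or an siRNA group of 4 arrays, and 1 set held such an array by Dixon's test. In PD-only control siRNA 1, array D read 3.70 for Hbb-y and the nearest of the other 3 arrays read 3.98, a gap of 0.848 of the range of the group. Chance alone marks about 1 in 20 such sets.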

How the results depend on the processing

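Leaving out each of the 22 arrays moved the difference of YAP/TAZ siRNA from PD-only control to between 3.67 and 3.80 for Hbb-bh1, 2.03 and 2.08 for Hbb-y and 1.82 and 1.90 for Hba-x. The probe set rule mattered most. The mean of all probe sets gave 4.06 and 4.17 for Hbb-bh1 and Hbb-y, and, chosen after seeing the data, the second brightest probe set gave 4.04 and 5.14 and the third 4.41 and 5.32. Against 2i control these settings gave 4.11, 4.31 and 4.47 for Hbb-bh1 and 4.10, 5.09 and 5.32 for Hbb-y. For 2i against PD-only control they gave -0.057, -0.27 and -0.064 for Hbb-bh1, and the third probe set -0.0029 for Hbb-y. Control siRNA 1 alone gave 0.0075 and control siRNA 2 alone 0.32 for that Hbb-y difference, and 2.03 and 1.77 for Hbb-y against 2i control. The Actb covariate gave 1.69 for Hba-x against PD-only control and -0.23 between the media; the cause was not tested. With dim genes left out Hbb-y has no value.

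Requiring a log2 difference of at least 1 left 1158, 1057 and 275 called genes for YAP/TAZ siRNA against PD-only control, 2i against PD-only control and YAP/TAZ siRNA against 2i control. A variance trend and robust fit called 1 and 2 genes between the control siRNAs in PD-only medium and in 2i. The relation of Hbb-bh1 and Hba-x with YAP/TAZ siRNA was 0.747 (adjusted permutation p = 0.126) on the mean of probe sets, and that of Hbb-y and Hba-x in 2i was -0.335 (p = 0.576) there and -0.871 (p = 0.0518) after centring arrays. With a replicate block by letter, the differences from PD-only control were 3.73, 2.07 and 1.89, with 11261 genes called. The labels do not say whether arrays of the same letter belong together.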
